A study of Homo sapiens with 10 samples.

Results

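The mRNA levels of 10 genes of glucose uptake and its first phosphorylation, chosen by symbol, were compared in HCT116 cells, a human colorectal cancer line. They are the hexokinases *HKDC1*, *HK1* and *HK2*, the ADP-dependent glucokinase *ADPGK*, the glucose transporters *SLC2A1*, *SLC2A3*, *SLC2A6* and *SLC2A8*, and the alpha-arrestins *TXNIP* and *ARRDC4*. RNA-seq libraries came from 2 experiments. In the *ZMAT3* experiment, 3 libraries of *ZMAT3*-WT and 3 of *ZMAT3*-KO cells were compared. In the siRNA experiment, 2 libraries of cells transfected with siCTRL and 2 of cells transfected with sip53, a pool of p53 siRNAs, were collected after 72 hr. The comparisons ask how the mRNAs of these genes differ when *ZMAT3*, a p53 target gene that encodes a zinc finger RNA-binding protein, or p53 itself is depleted. Of the 10 genes, 8 are listed among the 13029 genes of the *ZMAT3* table, and all 10 among the 17642 of the siRNA table. *SLC2A3* and *TXNIP* were not analysed here in the *ZMAT3* experiment.

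No drug treatment is described for the cells of these libraries, apart from the puromycin selection that preceded isolation of the *ZMAT3* clones. Both *ZMAT3* groups were single-cell clones, and the knockout was made with guides flanking the p53 response element in intron 2 of *ZMAT3* rather than its coding exons. The spread between libraries of a group is therefore that between cultures of a clone. The paper describes a single *ZMAT3*-KO clone, so depletion of *ZMAT3* and a difference between clones cannot be told apart in these libraries. The p-values of this experiment do not measure variation between clones. The labels of these 6 libraries also carry the abbreviations EV and unt, which the sources used here do not explain. The *ZMAT3* values are log2 CPM with nearly the same distribution in all libraries (linear sums of 999929 to 999931), and the siRNA values were read as FPKM (sums of 708634 to 829230). No read counts were used, so the depth of each library is unknown. The tables were normalized separately, and levels are compared only within a table. *ZMAT3* mRNA was 7.43-fold lower in *ZMAT3*-KO than in *ZMAT3*-WT cells. The p53 target *CDKN1A*, which encodes the cell cycle inhibitor p21, was at 525.0 and 481.1 FPKM with siCTRL against 34.2 and 37.7 FPKM with sip53. In *ZMAT3*-KO cells *CDKN1A* was also lower, by less than 1.5-fold (log2 fold change -0.53, limma adjusted p = 2.02e-08). With sip53 *ZMAT3* mRNA was 4.96-fold lower (log2 fold change -2.31, limma unadjusted p = 0.00028, limma adjusted p = 0.067). *ZMAT3* and *CDKN1A* were thus lower in both experiments, and the part of this in the changes of other genes was not tested. The colon epithelial keratins *KRT8*, *KRT18*, *KRT19* and *KRT20* were lower in *ZMAT3*-KO cells by the adjusted p. They are 4 of the 7 listed epithelial markers, where 30.1% of all genes were lower by that threshold. The summed level of the 7 markers was 5759 to 6085 CPM in *ZMAT3*-WT and 3161 to 3242 CPM in *ZMAT3*-KO libraries. The part of these keratins in the results was not tested. *EPCAM*, *CDH1* and *CDX2* did not pass the test, and of the fibroblast, endothelial, leukocyte and hepatocyte markers searched only *COL1A1* was listed, at 9.16 to 9.79 CPM in *ZMAT3*-WT and 10.4 to 10.9 CPM in *ZMAT3*-KO libraries. This fibroblast marker passed the adjusted p as higher in *ZMAT3*-KO cells (log2 fold change 0.16, limma adjusted p = 0.0269), by less than 1.5-fold, and its part in the results was not tested. With sip53 the 7 epithelial markers tested included 1 that was higher at an unadjusted p of 0.05, *EPCAM*, where 5.86% of all genes were. The summed level of the markers listed was 3739 to 3975 FPKM with siCTRL and 3536 to 4172 FPKM with sip53.

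Glucose enters cells through facilitative transporters of the SLC2A (GLUT) family and is trapped inside when a hexokinase phosphorylates it to glucose 6-phosphate, the entry point of glycolysis, the pentose phosphate pathway and glycogen synthesis. *HK1* and *HK2* encode high-affinity hexokinases that can dock on the outer mitochondrial membrane, while *HKDC1* encodes the fifth and most recently recognised member of the family. TXNIP and ARRDC4 are alpha-arrestins that lower glucose uptake by promoting removal of glucose transporters from the plasma membrane, and their genes are induced by glucose through the MondoA-MLX transcription factors.

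The sequence around the AP-1 motif of *HKDC1* intron 1 is shown because the study placed its JUN ChIP-qPCR amplicon there. AP-1 is the dimeric factor of JUN and FOS family proteins, and its motif is TGAGTCA or, on the other strand, TGACTCA. The window is chr10:69222808-69222903 of hg38 on the plus strand, with the motif in capitals at 69222828 to 69222834, 2496 bases from the gene's start. It is the only match in the 6708 bases of this intron, and lies 8 bases before the 61-base amplicon at 69222843 to 69222903, which fills the rest of the line.

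HKDC1 intron 1: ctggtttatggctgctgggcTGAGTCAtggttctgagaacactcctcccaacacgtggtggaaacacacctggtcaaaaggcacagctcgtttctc

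The RefSeq promoter windows (250 bases before to 50 after an annotated start, GRCh38.p14) were searched on both strands for the AP-1 motif, for ACGTG, the core of hypoxia response elements, which is also part of the E-box CACGTG, and for 2 copies of CACGNG on 1 strand 5 bases apart, a form of the carbohydrate response element. RefSeq windows were found for 9 of the 10 genes, not for *SLC2A3*, and the 9 had 17 windows, 7 of them of *HK1*. The AP-1 motif was in 3 windows, 2 of *HK1* and 1 of *ARRDC4*, and in 4.95% of 35116 windows of all genes. ACGTG was in 4 windows, of *HK2*, *TXNIP* and *ARRDC4*, and in 21.4% of all windows. The paired CACGNG sites were in 1 window of *TXNIP* and in 0.057% of all windows. The window of *HKDC1* and that of *SLC2A1*, the members with the largest changes in both experiments, held none of these letters. These windows do not cover the rest of either gene. For *SLC2A1* the paper reported JUN ChIP-seq peaks in each of the public cell line datasets it used. It found *SLC2A1* mRNA unchanged after *JUN* knockdown in HCT116 cells. For comparison the 250 bases before the start are printed for those 2 genes and for both alpha-arrestins, with all matches in capitals. They lie at chr10:69220082-69220331 on the plus strand for *HKDC1*, chr1:42958869-42959118 on the minus strand for *SLC2A1*, chr15:97960453-97960702 on the plus strand for *ARRDC4* and chr1:145996580-145996829 on the minus strand for *TXNIP*.

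HKDC1 upstream: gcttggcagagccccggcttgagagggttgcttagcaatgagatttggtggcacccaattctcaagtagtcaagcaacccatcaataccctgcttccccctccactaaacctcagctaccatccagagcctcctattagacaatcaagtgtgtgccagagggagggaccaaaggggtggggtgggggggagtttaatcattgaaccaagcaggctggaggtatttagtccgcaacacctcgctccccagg

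SLC2A1 upstream: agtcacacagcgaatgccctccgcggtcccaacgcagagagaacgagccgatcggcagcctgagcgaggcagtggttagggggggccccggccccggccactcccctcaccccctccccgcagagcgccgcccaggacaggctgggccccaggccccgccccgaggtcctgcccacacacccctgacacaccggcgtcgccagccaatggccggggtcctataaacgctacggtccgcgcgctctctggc

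ARRDC4 upstream: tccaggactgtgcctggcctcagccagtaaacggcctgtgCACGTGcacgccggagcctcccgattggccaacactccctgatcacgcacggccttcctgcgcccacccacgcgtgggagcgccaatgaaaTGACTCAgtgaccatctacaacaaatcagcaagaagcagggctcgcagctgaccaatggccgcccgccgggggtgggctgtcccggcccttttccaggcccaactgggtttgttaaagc

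TXNIP upstream: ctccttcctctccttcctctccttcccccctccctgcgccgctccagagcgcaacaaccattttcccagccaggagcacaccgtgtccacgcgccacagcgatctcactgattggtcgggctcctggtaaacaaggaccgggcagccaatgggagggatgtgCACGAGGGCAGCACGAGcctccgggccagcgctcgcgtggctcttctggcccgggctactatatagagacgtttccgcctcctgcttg

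In the *ARRDC4* line the first capitals are the E-box, in which ACGTG is read on both strands from position -210 to -205 relative to the start, and the second are the AP-1 motif from -119 to -113. In the *TXNIP* line the capitals span the paired sites, from -88 to -72, with the 5 bases between them. The *HKDC1* window had a GC content of 55.3% and 5 CpG dinucleotides, and the *SLC2A1* window 71.0% and 30.

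**Figure D1:**
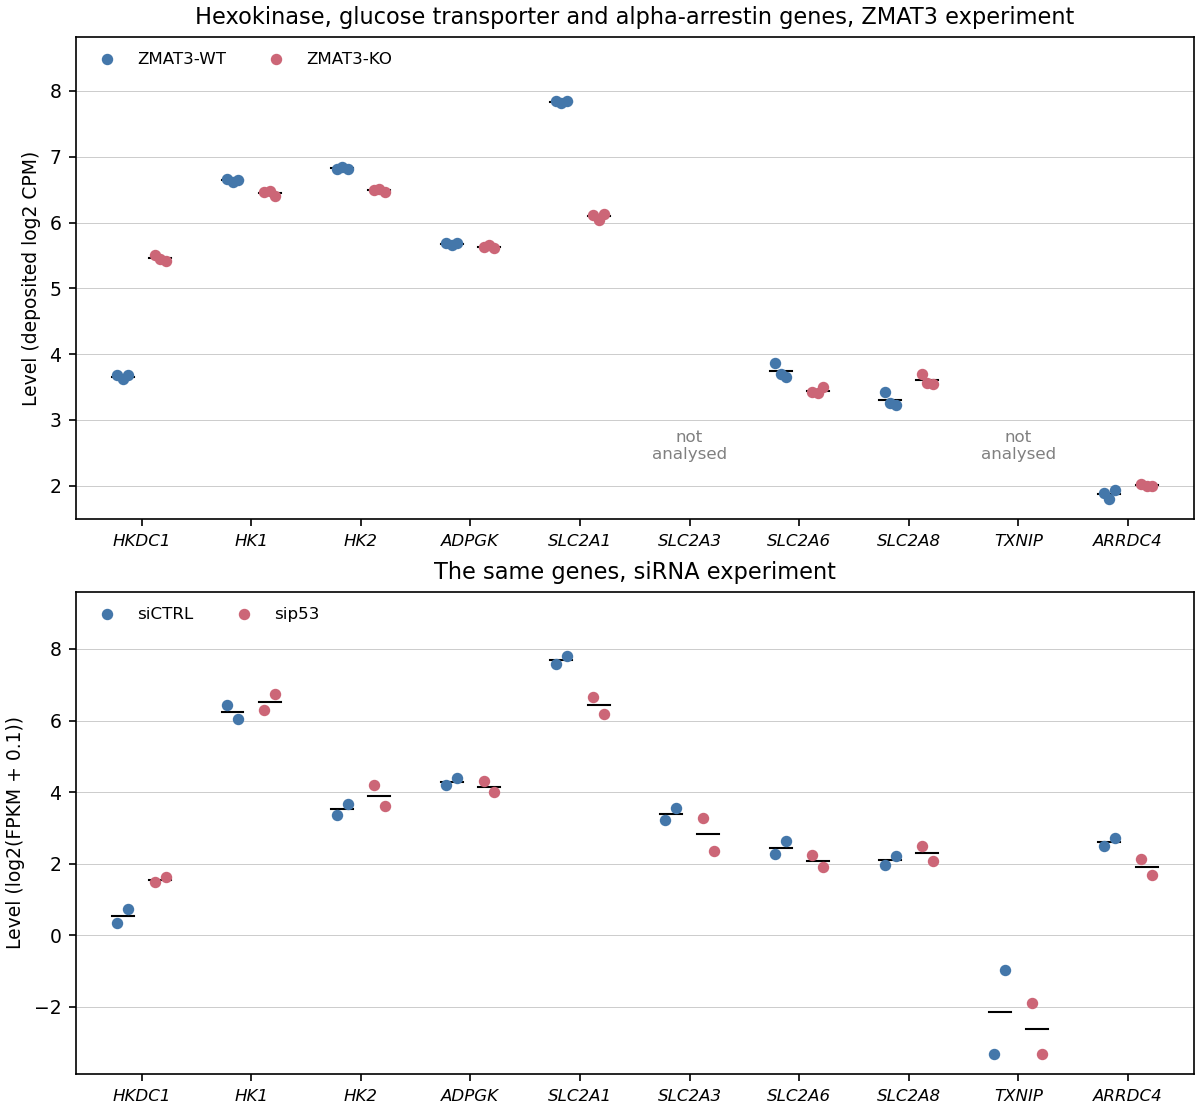
Level of each gene in every library, as deposited log2 CPM in the *ZMAT3* experiment (top) and log2(FPKM + 0.1) in the siRNA experiment (bottom); points are libraries and bars the group means. *HKDC1* moved up and *SLC2A1* down in both experiments, with no overlap between groups.

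The hexokinases did not move together in *ZMAT3*-KO cells: *HKDC1* rose 3.47-fold while *HK1* and *HK2* fell by less. *HKDC1* was at 3.68, 3.62 and 3.68 log2 CPM in *ZMAT3*-WT and at 5.51, 5.45 and 5.42 log2 CPM in *ZMAT3*-KO libraries. The libraries of each group lay within 0.1 log2 CPM of each other and the groups were far apart. The log2 fold change was 1.80 (95% confidence interval 1.70 to 1.89, limma adjusted p = 3.76e-12), the increase of rank 75 among the 13029 genes. The level of *HKDC1* went from 12.6 ± 0.272 to 43.9 ± 1.43 CPM (SD, n = 3 each). In bulk RNA, more cells with the mRNA and more mRNA per cell cannot be told apart.

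*HK1* begins 2431 bases after the end of *HKDC1* on the same strand, counted to the first of its annotated starts. Which of its starts was in use was not tested. *HK1* was at 6.66, 6.61 and 6.65 log2 CPM in *ZMAT3*-WT and at 6.47, 6.48 and 6.41 log2 CPM in *ZMAT3*-KO libraries. All *ZMAT3*-KO values were below all *ZMAT3*-WT values, by a log2 fold change of -0.19 (SE 0.032, limma adjusted p = 0.00027), opposite to its neighbour. *HK2*, the hexokinase most often induced in tumours, was at 6.82, 6.85 and 6.81 log2 CPM in *ZMAT3*-WT and at 6.50, 6.52 and 6.46 log2 CPM in *ZMAT3*-KO libraries. Its groups did not overlap either, and the log2 fold change was -0.34 (SE 0.030, limma adjusted p = 9.9e-07). *ADPGK*, which phosphorylates glucose with ADP in place of ATP, was at 5.65 to 5.69 log2 CPM in *ZMAT3*-WT and 5.61 to 5.65 log2 CPM in *ZMAT3*-KO libraries, just without overlap. This difference did not pass the test (log2 fold change -0.053, 95% confidence interval -0.125 to 0.020, limma adjusted p = 0.192).

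Because the changes had opposite signs, the hexokinase sum was similar while its makeup was not. *HKDC1* made up 5.66%, 5.47% and 5.66% of the summed CPM of *HKDC1*, *HK1* and *HK2* in *ZMAT3*-WT libraries, and this was 20.3%, 19.4% and 19.8% in *ZMAT3*-KO libraries. Its share was thus 14.2 percentage points higher (5.60% ± 0.11 against 19.8% ± 0.440, SD, n = 3 each), and an exact two-sided permutation test gave p = 0.1, the smallest that 3 against 3 libraries allow. The share of *HK1* went from 44.2% ± 0.665 to 39.6% ± 0.240 and that of *HK2* from 50.2% ± 0.775 to 40.6% ± 0.328 (SD, n = 3 each). The sum itself was 226.6, 225.5 and 225.7 CPM in *ZMAT3*-WT and 224.2, 224.6 and 215.6 CPM in *ZMAT3*-KO libraries. The lowest sum, of *ZMAT3*-KO-3, lay apart from the other 5.

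CPM counts fragments of long and short mRNAs alike, so the genes were also compared per kilobase of their canonical transcripts. In *ZMAT3*-WT cells *HK1* then stood first at 27.7 ± 0.472 CPM per kilobase, *HK2* next at 20.2 ± 0.277 and *HKDC1* last at 3.46 ± 0.0744 (SD, n = 3 each). In *ZMAT3*-KO cells the order was the same, with 24.4 ± 0.677, 16.0 ± 0.319 and 12.02 ± 0.392 CPM per kilobase, and the gap between *HKDC1* and *HK2* narrowed. On this scale the share of *HKDC1* went from 6.74% ± 0.11 to 23.0% ± 0.484 (SD, n = 3 each), and the hexokinase sum was 1.95% higher in *ZMAT3*-KO cells (exact permutation p = 0.4), whereas in CPM it was 1.97% lower (exact permutation p = 0.1, two-sided). The direction of the small difference in the sum thus depends on the scale, and that of the share does not.

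**Figure D2:**
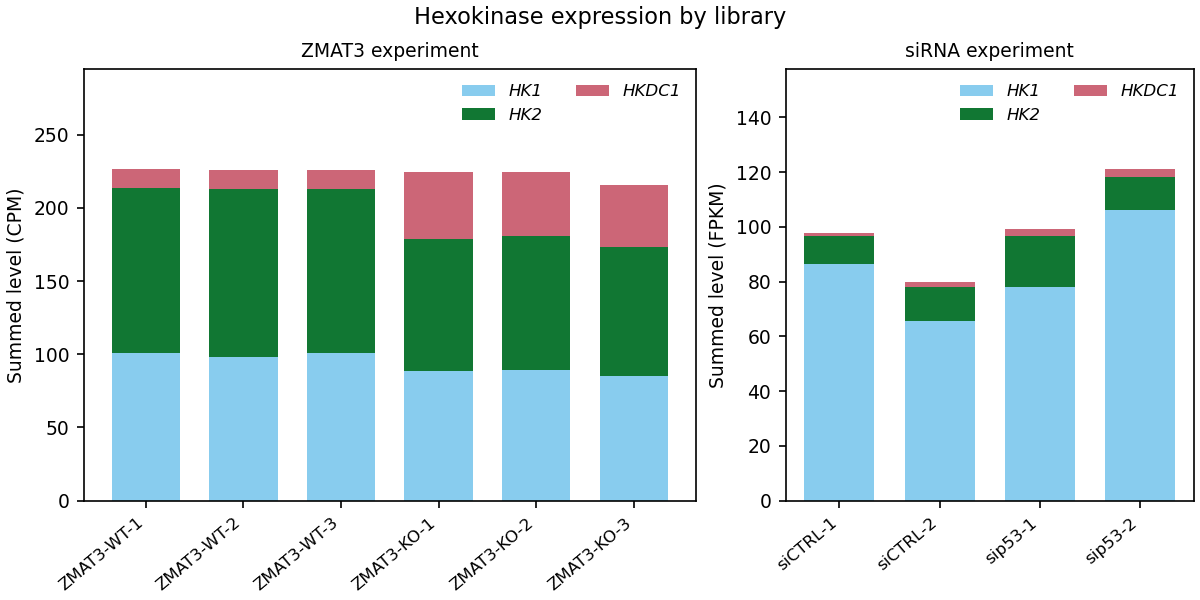
Stacked levels of the hexokinase genes in each library, in CPM for the *ZMAT3* experiment (left) and FPKM for the siRNA experiment (right). In the 3 *ZMAT3*-KO libraries *HKDC1* fills 19.4% to 20.3% of bars whose heights are close to those of *ZMAT3*-WT, while *HK1* fills most of every siRNA bar.

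*HKDC1* was also higher in the siRNA experiment. It was at 1.16 and 1.58 FPKM with siCTRL and at 2.71 and 2.97 FPKM with sip53, without overlap. The log2 fold change was 1.01 (95% confidence interval 0.32 to 1.71, limma unadjusted p = 0.0128) and missed the threshold over all genes tested (limma adjusted p = 0.206). The call was lost without siCTRL-1, where the log2 fold change was 0.81 (limma unadjusted p = 0.076), and without sip53-2, where it was 0.95 (limma unadjusted p = 0.053).

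*HK1* was at 86.3 and 65.5 FPKM with siCTRL and at 78.2 and 106.2 FPKM with sip53, so that the groups overlapped. Its log2 fold change of 0.28 (95% confidence interval -0.35 to 0.90) did not pass the test (limma unadjusted p = 0.313). *HK2* was at 10.2 and 12.7 FPKM with siCTRL and at 18.4 and 12.01 FPKM with sip53, also overlapping, with a log2 fold change of 0.38 (95% confidence interval -0.30 to 1.06, limma unadjusted p = 0.213). The interval of *HK1* includes the -0.19 of *ZMAT3*-KO cells, and that of *HK2* ends just above its -0.34 there. *ADPGK* was at 18.2 and 21.0 FPKM with siCTRL and at 19.6 and 15.9 FPKM with sip53 (log2 fold change -0.14, 95% confidence interval -0.65 to 0.36).

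FPKM is already per length, and by it *HK1* made up most of the hexokinase mRNA of the siRNA libraries. Of the summed FPKM of the 3 hexokinases *HK1* took 85.2% ± 4.43 with siCTRL and 83.2% ± 6.30 with sip53, and *HK2* 13.2% ± 3.87 and 14.2% ± 6.10 (SD, n = 2 each). *HKDC1* took 1.19% and 1.98% with siCTRL and 2.73% and 2.45% with sip53. Both sip53 shares were above both siCTRL shares, by 1.01 percentage points on average, and the exact two-sided permutation p of 0.33 is the smallest that 2 against 2 libraries allow. *HK2* was thus close to *HK1* per length in the *ZMAT3*-WT libraries (20.2 against 27.7 CPM per kilobase) and far below it with siCTRL (11.5 against 75.9 FPKM). The tables hold different units and were normalized separately, and the part of this in the gap was not tested.

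**Figure D3:**
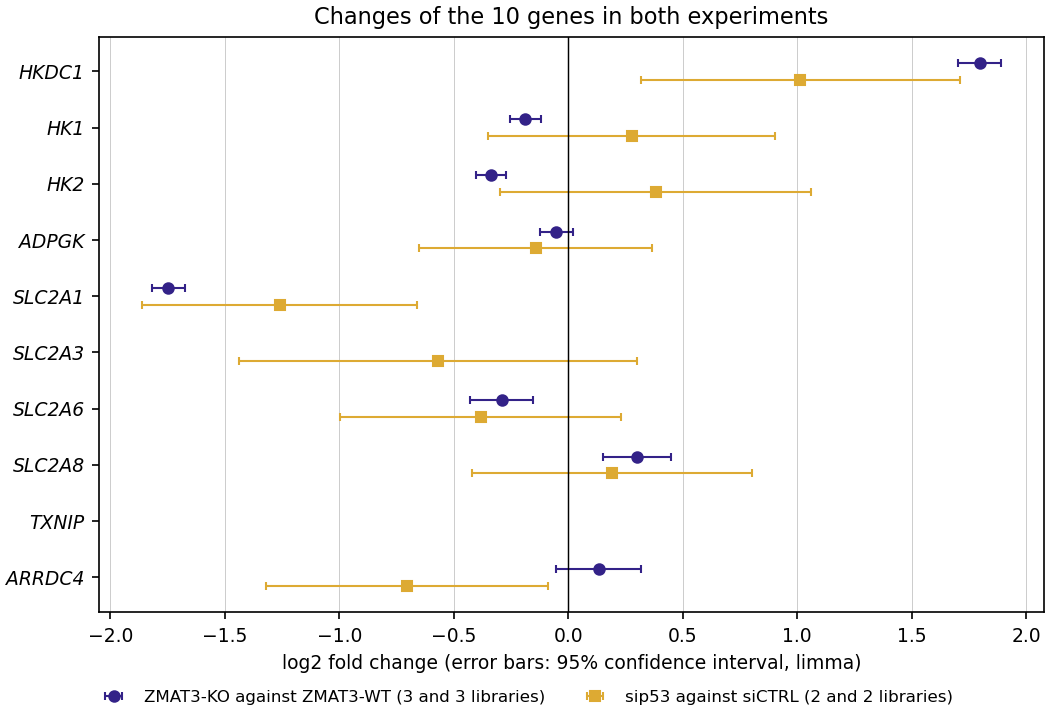
log2 fold change of each gene with its 95% confidence interval from limma, for *ZMAT3*-KO against *ZMAT3*-WT (circles) and sip53 against siCTRL (squares). Intervals of the siRNA experiment are several times wider, and in both experiments those of *HKDC1* lie above 0 and those of *SLC2A1* below it.

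Among the transporters *SLC2A1*, which encodes GLUT1, the main basal glucose transporter of most cultured cells, fell in both experiments. GENCODE release 44 places this minus-strand gene at chr1:42925353-42958893 in hg38. It was at 7.85, 7.81 and 7.85 log2 CPM in *ZMAT3*-WT and at 6.11, 6.03 and 6.13 log2 CPM in *ZMAT3*-KO libraries. The groups were separated by many times their spread, with a log2 fold change of -1.75 (SE 0.032, limma adjusted p = 2.58e-13). This 3.35-fold decrease was of rank 75 among all genes. With sip53 its 101.6 and 73.1 FPKM lay below the 189.9 and 225.1 FPKM of the siCTRL libraries. That 2.40-fold decrease (log2 fold change -1.26, SE 0.238, limma unadjusted p = 0.0026, limma adjusted p = 0.125) passed the unadjusted threshold with each library left out in turn, at log2 fold changes of -1.498 to -1.02, and missed the adjusted one.

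The other transporters differed by less and in both directions. *SLC2A6*, which encodes a lysosomal family member, was at 3.86, 3.69 and 3.66 log2 CPM in *ZMAT3*-WT and at 3.42, 3.42 and 3.51 log2 CPM in *ZMAT3*-KO libraries, a log2 fold change of -0.29 (SE 0.064, limma adjusted p = 0.00176). *SLC2A8*, whose product GLUT8 resides mainly in intracellular membranes, was at 3.43, 3.26 and 3.23 log2 CPM in *ZMAT3*-WT and at 3.69, 3.57 and 3.54 log2 CPM in *ZMAT3*-KO libraries. It rose by a log2 fold change of 0.30 (SE 0.068, limma adjusted p = 0.00227), the only transporter of the 3 to do so.

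In the siRNA experiment *SLC2A6* was at 4.72 and 6.11 FPKM with siCTRL and at 4.63 and 3.62 FPKM with sip53, without overlap by a margin of less than 0.1 FPKM. Its log2 fold change of -0.38 (95% confidence interval -0.996 to 0.230) did not pass the test (limma unadjusted p = 0.172). *SLC2A8* overlapped, at 3.82 and 4.58 against 5.55 and 4.13 FPKM (log2 fold change 0.19, 95% confidence interval -0.42 to 0.80, limma unadjusted p = 0.464). *SLC2A3* encodes GLUT3, a high-affinity transporter best known in neurons, and has a near-identical neighbour, *SLC2A14*, with which reads could have been split. It was at 9.26 and 11.7 FPKM with siCTRL and at 9.63 and 5.06 FPKM with sip53. The 2 sip53 libraries differed from each other, and the log2 fold change of -0.57 (95% confidence interval -1.44 to 0.30, limma unadjusted p = 0.155) rested on which of them was used: it was -1.03 without sip53-1 (limma unadjusted p = 0.0104) and -0.11 without sip53-2 (limma unadjusted p = 0.708). Without siCTRL-1 or siCTRL-2 it was -0.74 and -0.40, and neither passed.

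*SLC2A1* made up most of the transporter mRNA in every library. Of the summed CPM of *SLC2A1*, *SLC2A6* and *SLC2A8* it took 90.1%, 90.9% and 91.3% in *ZMAT3*-WT and 74.5%, 74.4% and 75.3% in *ZMAT3*-KO libraries. That is 16.0 percentage points lower (exact two-sided permutation p = 0.1, the smallest possible), and the sum was 252.1 ± 4.46 CPM in *ZMAT3*-WT and 91.3 ± 2.87 CPM in *ZMAT3*-KO cells (SD, n = 3 each). Per kilobase *SLC2A1* went from 67.6 ± 1.06 to 20.2 ± 0.732 CPM (SD, n = 3 each), and stayed above *SLC2A6*, at 5.36 and 4.38, and *SLC2A8*, at 4.61 and 5.66 CPM per kilobase. By length the order of *SLC2A6* and *SLC2A8* was thus opposite in the 2 groups, and the share of *SLC2A1* was 87.2% ± 0.828 and 66.8% ± 0.660 (SD, n = 3 each). In the siRNA experiment, with *SLC2A3* in the sum, the share of *SLC2A1* was 91.4% and 91.0% with siCTRL and 83.7% and 85.1% with sip53 (exact two-sided permutation p = 0.33, the smallest possible). Summed, they reached 207.7 and 247.5 FPKM in the siCTRL libraries but 121.4 and 85.9 FPKM in the sip53 libraries. These are mRNA levels and not a measure of glucose uptake. The paper assayed uptake separately, as the phosphorylated form of a glucose analog, a readout that also depends on hexokinase activity. It reported more of this product in *ZMAT3*-KO than in *ZMAT3*-WT cells, and a reversal of the increase by *HKDC1* knockdown.

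**Figure D4:**
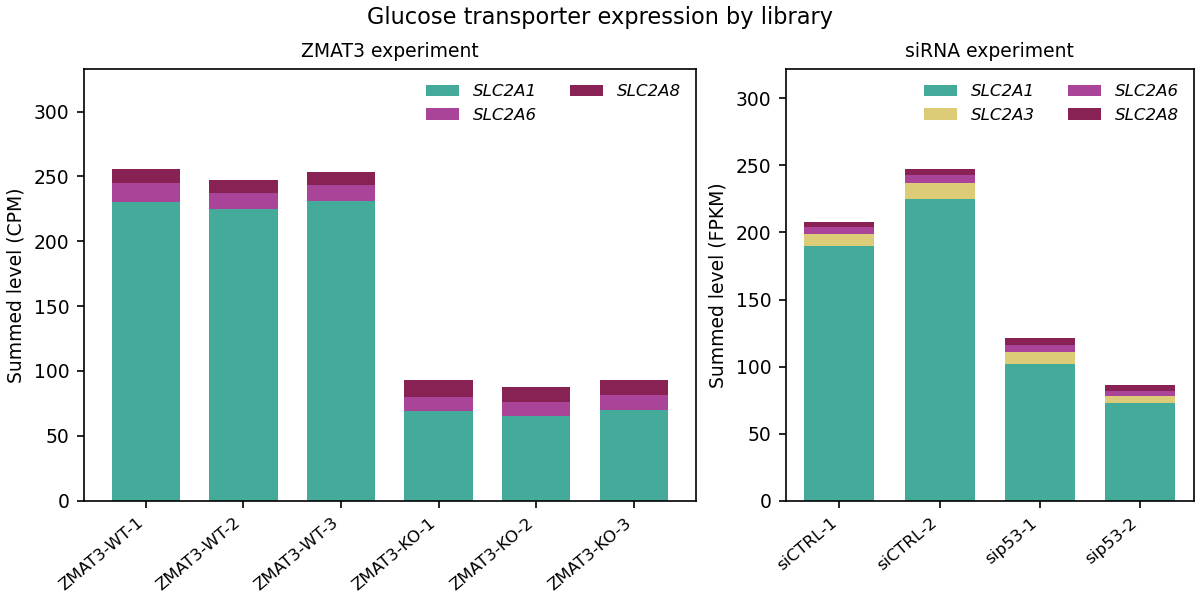
Stacked levels of the glucose transporter genes in each library, in CPM for the *ZMAT3* experiment (left) and FPKM for the siRNA experiment (right). The bars of *ZMAT3*-KO and sip53 cells are below those of their controls, mainly through the *SLC2A1* segment.

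The 2 alpha-arrestins gave no call that held under every setting. *TXNIP* was listed at 0 and 0.41 FPKM with siCTRL and at 0.17 and 0 FPKM with sip53. Each group held 1 library at 0, and the gene was below the mean of 0.5 FPKM required for the test. *ARRDC4* was at 1.90, 1.80 and 1.93 log2 CPM in *ZMAT3*-WT and at 2.02, 2.00 and 2.00 log2 CPM in *ZMAT3*-KO libraries. Its groups did not overlap, but the log2 fold change of 0.13 did not pass the test (95% confidence interval -0.053 to 0.32, limma adjusted p = 0.200). With the siRNAs it was at 5.50 and 6.48 FPKM with siCTRL and at 4.26 and 3.09 FPKM with sip53. Both sip53 values were lower, by a log2 fold change of -0.70 (SE 0.244, limma unadjusted p = 0.032, limma adjusted p = 0.280). The unadjusted p was above 0.05 when siCTRL-1, siCTRL-2 or sip53-2 was left out (log2 fold changes of -0.82, -0.59 and -0.48) and below it without sip53-1 (-0.93).

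In all, 2 of the 8 genes in the *ZMAT3* experiment passed both an adjusted p of 0.05 and a change of 1.5-fold, *HKDC1* (higher) and *SLC2A1* (lower), where 8.96% of all genes tested did so. By the adjusted p alone 2 of the 8 were higher, *HKDC1* and *SLC2A8*, where 28.7% of all genes were, and 4 were lower, *HK1*, *HK2*, *SLC2A1* and *SLC2A6*, where 30.1% of all genes were. The groups did not overlap for 8 of the 8, against 64.2% of all genes. Counts by the adjusted p alone thus say little about these genes beside a table in which most genes passed. The median log2 fold change of the 8 was -0.12, against -0.0052 over all genes.

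Of the 9 genes tested in the siRNA experiment, 1 was higher at an unadjusted p of 0.05, *HKDC1*, where 5.86% of all genes were, and 2 were lower, *SLC2A1* and *ARRDC4*, where 9.28% were. By limma's adjusted p, 0 of the 9 passed, where 0.273% of all 14274 genes tested did, and 3 had an unadjusted p under 0.05. The groups did not overlap for 4 of the 9, *HKDC1*, *SLC2A1*, *SLC2A6* and *ARRDC4*, against 46.4% of all genes. The median log2 fold change was -0.14, against -0.0405 over all genes.

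Of the other SLC2A family members and sugar transporters, 0 of 7 tested passed limma's adjusted p as higher in *ZMAT3*-KO cells and 1 as lower, beside 28.7% and 30.1% of all genes. The median log2 fold change of the 7 was -0.003, and that of all genes was -0.0052. The gene that passed was *SLC2A4*, the insulin-responsive GLUT4, which was lower by a log2 fold change of -0.59 (limma adjusted p = 0.00136) at a low level, 2.24 ± 0.0644 against 1.495 ± 0.0827 CPM (SD, n = 3 each). The inositol transporter *SLC2A13*, at 12.6 ± 0.719 CPM in *ZMAT3*-WT and 13.3 ± 0.794 CPM in *ZMAT3*-KO cells (SD, n = 3 each), did not pass. With sip53, 0 of 7 passed at an unadjusted p in limma, and so 0 at an adjusted p, beside 5.86% of all genes higher and 9.28% lower at the unadjusted p. When every SLC2A gene listed was summed, the share of *SLC2A1* went from 83.5% ± 0.430 to 60.4% ± 0.977 in the *ZMAT3* experiment (SD, n = 3 each).

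Among other sugar kinases, glucose 6-phosphate handling genes and the mitochondrial channels to which hexokinases dock, 4 of 9 passed the adjusted p as higher in *ZMAT3*-KO cells and 1 as lower, and 0 by 1.5-fold. Over all genes 28.7% were higher, 30.1% were lower, and 8.96% passed with 1.5-fold in either direction. The median log2 fold change of the 9 was 0.07. The largest increases were those of *NAGK*, the N-acetylglucosamine kinase (log2 fold change 0.43), *G6PC3*, the ubiquitous glucose-6-phosphatase (0.32), and *SLC37A4*, the glucose 6-phosphate transporter of the endoplasmic reticulum (0.17). *GALK2* was lower (-0.28). With sip53, 1 of 9 passed the unadjusted p as higher and 0 as lower, where 5.86% and 9.28% of all genes did. It was the galactokinase *GALK1*, with a log2 fold change of 0.59 (limma unadjusted p = 0.0425, limma adjusted p = 0.308).

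Of the glycolytic genes after hexokinase, 10 of 21 passed the adjusted p as higher in *ZMAT3*-KO cells and 5 as lower, all by less than 1.5-fold, with a median log2 fold change of 0.09. Over all genes these shares were 28.7% and 30.1%, and the median was -0.0052. The largest increases were those of *ALDOC*, an aldolase (log2 fold change 0.47), *PFKL*, the liver-type phosphofructokinase subunit (0.39), and *PFKFB4*, which sets fructose 2,6-bisphosphate (0.32). The largest decreases were those of *PFKFB3*, a paralog of *PFKFB4* (-0.39), *TIGAR*, a fructose bisphosphatase and p53 target (-0.33), and *PFKP*, the platelet-type phosphofructokinase subunit (-0.28). With sip53, 1 of 20 was higher, *ALDOC* (63.5 to 149.3 FPKM, log2 fold change 1.23, limma unadjusted p = 0.00104, limma adjusted p = 0.105), and 1 lower, *PFKFB4* (log2 fold change -0.50, limma unadjusted p = 0.0466, limma adjusted p = 0.319).

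The MondoA-MLX factors that drive *TXNIP* and *ARRDC4*, with other alpha-arrestins and the thioredoxins, held 2 higher and 3 lower of 10 genes in *ZMAT3*-KO cells by the adjusted p, beside 28.7% and 30.1% of all genes. *MLXIP*, which encodes MondoA, did not pass in either experiment (log2 fold changes of 0.012 and -0.30). *ARRDC3*, an alpha-arrestin close to *ARRDC4*, was higher in *ZMAT3*-KO cells (log2 fold change 0.66, limma adjusted p = 2.25e-08) and at an unadjusted p with sip53, where it went from 14.0 to 30.8 FPKM (log2 fold change 1.12, limma unadjusted p = 0.00113, limma adjusted p = 0.107). *ARRDC1* was also higher in *ZMAT3*-KO cells (log2 fold change 0.24), and *TXNRD1*, the cytosolic thioredoxin reductase (-0.32), the mitochondrial thioredoxin *TXN2* (-0.14) and *MLX* (-0.10) were lower. With sip53 the mitochondrial thioredoxin reductase *TXNRD2* was lower (log2 fold change -0.60, limma unadjusted p = 0.0296, limma adjusted p = 0.272).

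**Figure D5:**
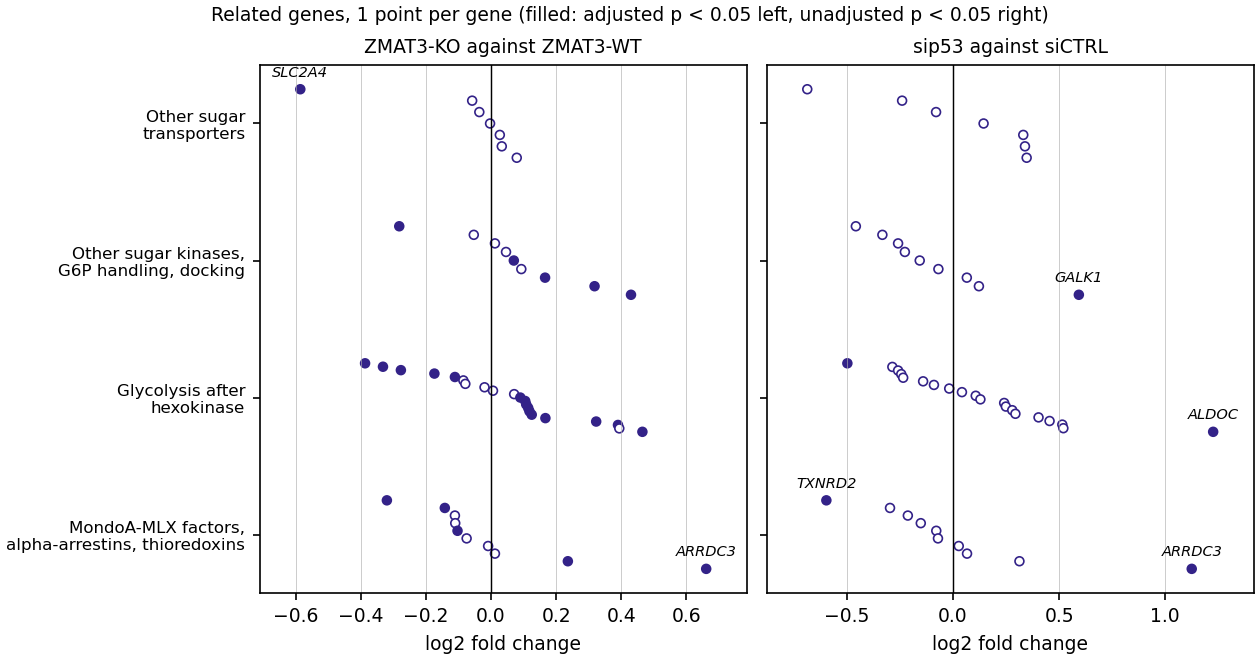
log2 fold change of each gene of the 4 related lists, for *ZMAT3*-KO against *ZMAT3*-WT (left) and sip53 against siCTRL (right); filled points passed the test of that experiment, and those over 0.5 in size are named. *ARRDC3* and *ALDOC* are the highest points with sip53, at 1.12 and 1.23, and *ARRDC3* is also the highest in *ZMAT3*-KO cells.

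Genes with a course over the 10 libraries most like that of *HKDC1* or *SLC2A1* were found by Euclidean distance after each experiment was centred on its controls, over the 11385 genes tested in both. Nearest to *HKDC1* were *MPP7*, which encodes a membrane-associated scaffold protein (distance 0.635), *CA12*, a membrane carbonic anhydrase (0.713), and *VSNL1*, a neuronal calcium sensor (0.844). Their log2 fold changes were 1.70, 1.89 and 1.89 in *ZMAT3*-KO cells and 0.69, 0.61 and 0.66 with sip53, all below the 1.01 of *HKDC1* in the latter. With sip53 *CA12* did not pass even the unadjusted threshold (limma unadjusted p = 0.0892). *MPP7* and *VSNL1* did (limma unadjusted p = 0.00992 and 0.0388), and all missed the adjusted one (limma adjusted p of 0.190 to 0.404). Nearest to *SLC2A1* were *ANO1*, a calcium-activated chloride channel (distance 0.545), *LACC1*, an enzyme of macrophage purine metabolism (0.731), and *THBS1*, which encodes thrombospondin 1 (0.804). Their log2 fold changes were -1.66, -1.58 and -1.36 in *ZMAT3*-KO cells and -1.27, -0.88 and -0.99 with sip53. All passed the unadjusted threshold with sip53 (limma unadjusted p of 0.000614 to 0.0231) and missed the adjusted one (limma adjusted p of 0.0886 to 0.247). *TXNIP* was not tested in both experiments and has no such list.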

How the data were processed

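RNA-seq of HCT116 cells was analysed from tables of processed values in 10 libraries, grouped by their labels. In the *ZMAT3* experiment the authors aligned stranded, oligo(dT)-captured libraries to hg38 with STAR, quantified genes with RSEM and deposited log2 CPM; the 6 libraries share nearly 1 distribution of values. The siRNA values the authors deposited have no stated unit and were read here as FPKM because the lengths of 166 single-transcript genes then imply 29.2 M fragments a library, against the 30.8 M that the deposited mean signal sums to. The submitters' processing notes name CASAVA 1.8.2, TopHat2 2.0.8 and FastQC 0.11.2, with hg19 and hg38, without saying for which libraries. Columns of the authors' own comparisons (fold ratio, log2 fold change, score and p-value) are deposited too and were not used. The depth of each library is unknown, so no counting error was computed.

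Each table was fitted alone with limma 3.58.1 in R 4.3.3 (variance trend, two-sided, Benjamini-Hochberg over all genes): the deposited log2 CPM unfiltered, called at an adjusted p of 0.05 and 1.5-fold, and log2(FPKM + 0.1), which understates changes of low genes, for means of at least 0.5 FPKM, called at an unadjusted p of 0.05 as in the paper. Fits were tested on simulated data. Some genes of the related lists, of the hexokinase sum and of the knockdown check are not reported here. Shares were computed on linear values and tested by exact permutation of libraries. Gene positions are from GENCODE release 44 and promoter windows from RefSeq; members were matched by symbol, and *TXNIP* carries another identifier in the siRNA table than in that release. Named beside the members were *ZMAT3* and *CDKN1A* as checks, per related list, up to 3 genes in each direction with the largest change among those passing, and the 3 genes nearest to *HKDC1* and to *SLC2A1*; *MLXIP*, *SLC2A13* and the markers were named after their values were seen. The members and lists were chosen with earlier results of these data known. Same-numbered libraries did not deviate together (correlations of -0.093 to -0.022 in the *ZMAT3* and -0.616 in the siRNA experiment). Alternatives were other pseudocounts, filters, centring, thresholds, no variance trend, a replicate block, other sums for the shares, and leaving out each library.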

Additional observations from a re-analysis of the deposited data

How the results depend on the processing

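In the *ZMAT3* experiment the 8 genes kept their direction and their calls under every alternative that kept the thresholds, with 2 calls each time a library was left out. With the adjusted p alone 6 of the 8 passed (7659 of all genes, against 1168), and with 2-fold 2 (396 of all genes). With the replicate block 2 passed (1178 of all genes). The adjusted p of *ARRDC4*, limma's as all of these, was 0.0371 to 0.442, always with a change under 1.5-fold. In the siRNA experiment 3 of 9 genes and 2161 of all genes passed. With a mean of at least 5 FPKM 1 member passed, and *HKDC1*, *ARRDC4*, *SLC2A6* and *SLC2A8* were removed by that filter and not tested. By the adjusted p 0 members passed (39 of all genes), with no filter 2, and with the replicate block 2 (1084 of all genes). Leaving out each library in turn gave 1 to 4 members and 1185 to 1891 of all genes. The crossed pairing of libraries, added after seeing that same-numbered siRNA libraries deviated in opposite directions, gave 7 members and 5538 of all genes. That pairing was chosen from the deviations of these same libraries, so its counts are no evidence for the calls. *HK2* passed only without sip53-2 (log2 fold change 0.69), the crossed pairing aside. With each library left out, *SLC2A8* ranged from -0.018 to 0.40 and *ADPGK* from -0.29 to 0.0071 on the log2 scale, the direction being reversed without sip53-1 and without sip53-2, respectively, and neither passed the threshold. The cause of these changes was not tested beyond the fewer libraries or genes each leaves. The higher share of *HKDC1* in *ZMAT3*-KO cells was 14.2 percentage points, 11.6 with *ADPGK* in the sum, 16.2 per kilobase and 14.0 to 14.4 with each library left out. The share of *SLC2A1* differed by -16.0 points there, -23.2 with every SLC2A gene listed, -20.4 per kilobase and -16.4 to -15.8 with each library left out. With sip53 the share of *HKDC1* differed by 1.01 points (0.609 to 1.40 with each library left out) and that of *SLC2A1* by -6.80 (-15.1 with every SLC2A gene listed, -7.50 to -6.10 with each library left out). Centring on the median gene raised the log2 fold changes, with sip53 from 1.01 to 1.09 for *HKDC1* and from -1.26 to -1.19 for *SLC2A1*. The log2 offset it took out was -0.0758 in the siRNA and -0.00052 in the *ZMAT3* experiment. With no counts for each library, the limit that depth sets was not computed.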
